A study of Homo sapiens with 39 samples.

Results

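Interferon-stimulated genes are the genes that cells switch on when they sense interferon, and 39 of them, given by name, are described here in acute myeloid leukemia cells treated with tamibarotene (SY-1425), a synthetic retinoid that activates RARA, the alpha receptor of retinoic acid. For each gene the probe set that names it alone and has the highest mean over all 39 arrays was read, which gave a value for 37 of the 39 genes among 18132 genes tested. USP18 had its only probe set shared with other genes, and STAT2 was not analysed here. Messenger RNA was measured on Affymetrix arrays in 7 established human lines: MV-4-11, OCI-AML3, Sig-M5, NOMO-1, KG-1a, Kasumi-1 and OCI-M1. Each line had 3 arrays after 24 h with tamibarotene, added at 100 nM to reach a final 50 nM by the labels, and 2 or 3 arrays after 24 h with the DMSO vehicle alone. The vehicle arrays numbered 2 in KG-1a, Kasumi-1 and Sig-M5 and 3 in the other 4 lines. Each line stands for a single leukemia grown in culture. The labels do not state that replicates were separate cultures, so all p-values measure the spread between these arrays, which may be technical.

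Type I interferons bind the receptor pair IFNAR1 and IFNAR2, whose kinases JAK1 and TYK2 switch on the factor ISGF3, with STAT2 and IRF9 among its subunits. ISGF3 binds the interferon-stimulated response element (ISRE) in the promoters of most of these genes, while interferon gamma acts on the gamma-activated site (GAS) and raises IRF1. The proteins made block virus entry, copying and release, and several also mark the blood cells of people with interferon-driven disease. Retinoic acid has long been known to raise IRF1 and some other interferon-responsive genes in myeloid leukemia cells.

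The promoters of 5 members show the range of sites. IFI6 and IFI35 were called up in the most lines, LGALS3BP had a rise of more than 4-fold in a single line, ISG15 gave opposite calls in 2 lines, and IFI44L was called in none. Each sequence holds the 250 bases before the RefSeq transcription start of assembly GRCh38.p14, 5′ to 3′ on the gene's own strand, and no other RefSeq gene overlaps them. They are IFI6 at chr1:27672193-27672442 (minus strand), IFI35 at chr17:43006534-43006783 (plus strand), LGALS3BP at chr17:78979924-78980173 (minus strand), ISG15 at chr1:1013247-1013496 (plus strand) and IFI44L at chr1:78620198-78620447 (plus strand). Capitals mark matches to the ISRE core GAAANNGAAA on either strand, or in IFI35 the match to the GAS motif TTCNNNGAA.
IFI6: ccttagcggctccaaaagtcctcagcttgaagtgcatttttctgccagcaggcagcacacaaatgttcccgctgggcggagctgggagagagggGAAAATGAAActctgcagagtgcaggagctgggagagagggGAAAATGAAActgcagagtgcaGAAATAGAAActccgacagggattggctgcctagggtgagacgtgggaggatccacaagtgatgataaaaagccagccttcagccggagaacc
IFI35: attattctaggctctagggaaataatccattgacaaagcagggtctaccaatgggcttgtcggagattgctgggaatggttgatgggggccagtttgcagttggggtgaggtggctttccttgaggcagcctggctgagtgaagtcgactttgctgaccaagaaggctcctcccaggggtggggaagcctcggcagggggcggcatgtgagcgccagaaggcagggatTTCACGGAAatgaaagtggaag
LGALS3BP: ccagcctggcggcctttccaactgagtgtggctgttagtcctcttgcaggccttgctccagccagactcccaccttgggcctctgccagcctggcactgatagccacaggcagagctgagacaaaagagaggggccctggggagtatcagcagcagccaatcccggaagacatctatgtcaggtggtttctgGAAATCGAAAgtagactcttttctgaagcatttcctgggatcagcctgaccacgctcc
ISG15: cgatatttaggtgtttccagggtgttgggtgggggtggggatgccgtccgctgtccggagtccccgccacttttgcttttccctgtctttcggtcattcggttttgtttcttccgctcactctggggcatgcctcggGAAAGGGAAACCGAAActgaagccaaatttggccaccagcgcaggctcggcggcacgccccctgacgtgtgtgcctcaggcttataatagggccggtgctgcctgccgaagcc
IFI44L: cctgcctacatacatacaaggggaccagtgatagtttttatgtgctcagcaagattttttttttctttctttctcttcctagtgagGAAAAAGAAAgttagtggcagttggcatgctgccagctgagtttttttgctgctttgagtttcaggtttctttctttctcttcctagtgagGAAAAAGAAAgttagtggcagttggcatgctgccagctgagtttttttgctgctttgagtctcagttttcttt

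The IFI6 promoter held 3 ISRE cores, starting 156, 115 and 93 bases before the start site. ISG15 held 2 overlapping cores at 113 and 107 bases and IFI44L held 2 at 164 and 73 bases, while LGALS3BP held 1 at 58 bases. IFI35 held no ISRE core in this window and a GAS match 22 bases before its start. Of the 32 members with a promoter in the RefSeq table, 23 (71.9%) held an ISRE core between 250 bases before and 50 bases after a start, against 4.38% of all 27305 genes and 3.57% of their 35116 promoters. The GAS motif, which reads the same on both strands, stood in 9 members (28.1%) against 9.38% of genes and 7.66% of promoters. The DR5 type retinoic acid response element stood in 0 of 32, against 0.106% of genes and 0.0883% of promoters. Overlapping matches were allowed, and a match describes letters and is not a measured binding site. An ISRE core stood in 11 of the 14 members with a promoter that were called up in some line and in 12 of the 17 other measured members with one, and these shares were not compared by a test.

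The median log2 value of an array was 5.01 to 5.17. RNA integrity, read from the beta-actin control probe sets as how far the 3′ log2 value exceeds the 5′ one, stood apart in Sig-M5, where the vehicle arrays had 0.81 and 1.89 against 0.31 to 0.34 in the treated arrays. Kasumi-1 vehicle replicate 2 had 1.18 against 0.20 to 0.30 in the other Kasumi-1 arrays, and OCI-M1 vehicle replicates 2 and 3 had 0.52 and 0.56 against 0.10 to 0.24. The blood cell gene PTPRC (CD45) was measured at 5.12 to 9.42 in the line means over both arms, which also give the markers that follow. The myeloid marker MPO was high in Sig-M5, Kasumi-1 and NOMO-1 (12.78 to 13.80) and at 4.23 to 6.25 in the other lines, and the myeloid factor SPI1 was at 4.81 to 7.16. Other blood lineage genes ordered the lines differently. CD14 was at 3.69 to 5.68, and CSF1R at 7.91 in MV-4-11 and 5.39 to 6.33 elsewhere. KIT was at 8.42 to 10.50 in NOMO-1, OCI-M1 and Kasumi-1 and at 2.70 to 4.71 elsewhere. CD34 was at 9.29 in KG-1a, 7.02 in Kasumi-1 and 4.96 to 5.24 elsewhere. OCI-M1 had the erythroid factor GATA1 at 9.92, against 5.97 to 6.45 elsewhere. Among markers of other cell types, the T cell gene CD3D was at 12.03 in KG-1a and at most 3.59 elsewhere, and the epithelial gene EPCAM at 8.96 in Kasumi-1 and at most 3.28 elsewhere. The cytotoxic lymphocyte gene NKG7 was at 5.85 to 9.84. The T cell genes CD3E and CD2, the B cell genes MS4A1 and CD79A, the epithelial gene KRT8 and the fibroblast genes COL1A1, COL3A1 and DCN stayed at 2.89 to 6.09. Their part in the results was not tested. Expression of a whole culture cannot tell apart fewer cells that express a gene from less RNA in each cell.

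Tamibarotene raised a minority of the interferon-stimulated genes, mainly in OCI-AML3, MV-4-11 and NOMO-1, while Sig-M5 had both rises and falls. A gene was called at a limma adjusted p under 0.05 over all 18132 genes, with no minimum fold. In OCI-AML3, 8 of the 37 measured genes rose, against 5.5% of all genes, and 0 fell, against 6.36%. In MV-4-11 6 rose (background 4.32%) and 0 fell (background 3.4%). In NOMO-1 5 rose (2.77%) and 0 fell (0.711%). These 3 lines had no called fall among the members at all. With single arrays left out the rises numbered 4 to 5 in MV-4-11, 5 to 7 in OCI-AML3 and 1 to 5 in NOMO-1. OCI-AML3 had 5 rises without treated replicate 3 or without vehicle replicate 1, and NOMO-1 had 3 without treated replicate 2 and 1 without vehicle replicate 3.

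Sig-M5 was mixed, with 5 members called up (background 8.5%) and 6 called down (background 18.4%). The falls made up 16.2% of the members. A single fall was left, 1 of 37, without vehicle replicate 2, whose actin difference was 1.89. With the actin difference as a covariate 1 member rose and 1 fell in Sig-M5. In KG-1a 1 member rose and 1 fell, against 1.21% and 1.88% of all genes. In OCI-M1 1 rose and 1 fell, against 0.7% and 0.386%. In Kasumi-1 0 rose and 1 fell, against 0.48% and 2.36%. The single calls in these 3 lines depended on single arrays, as given with each gene below, except the fall of RSAD2 in OCI-M1. When each line was fitted alone, which leaves few arrays to estimate the spread, 0 members were called in NOMO-1, Kasumi-1 and OCI-M1, and 4 rose in KG-1a.

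**Figure D1:**
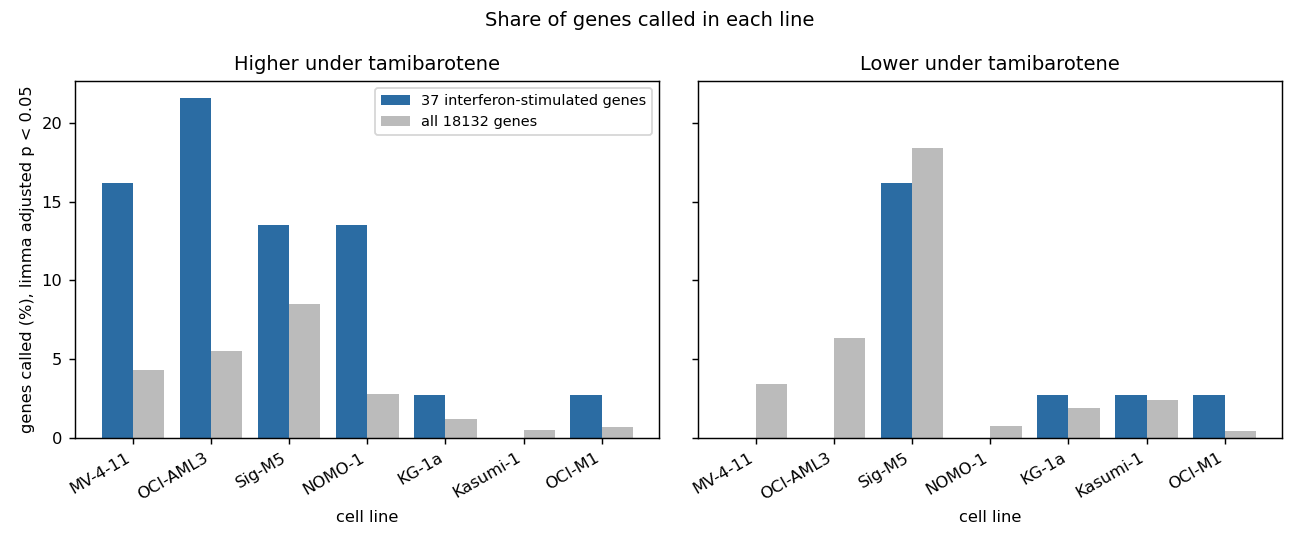
Share of the 37 measured interferon-stimulated genes (blue) and of all 18132 genes (grey) called higher (left) or lower (right) under tamibarotene in each line, in percent at a limma adjusted p under 0.05. For rises the blue bar stands above the grey one in every line but Kasumi-1, where it is at 0, though in KG-1a and OCI-M1 it is 1 gene. For falls it is at 0 in MV-4-11, OCI-AML3 and NOMO-1, below the grey bar in Sig-M5 (16.2% against 18.4%) and above it by 1 gene in KG-1a, Kasumi-1 and OCI-M1.

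As a group the members moved little. Their median log2 change was 0.27 in OCI-AML3, where 32 of 37 were above 0, and 0.17 in NOMO-1, where 30 were. It was 0.10 in MV-4-11 (22 above 0), 0.03 in OCI-M1 (22), 0.01 in Kasumi-1 (19), -0.06 in KG-1a (13) and -0.10 in Sig-M5 (13). The median of all genes lay between -0.03 and 0.02 in 6 lines and at -0.10 in Sig-M5, the same as that of the members there. Across the lines 15 members were called up at least once, against 15.5% of all genes, 4 in at least 3 lines, against 2.12%, and 2 in at least 4 lines, against 0.943%. No call in any line was made for 18 members, against 61.5% of all genes. There were 26 rises and 9 falls among all pairs of gene and line, and they concerned 19 genes. Rises made up 10% of the members' pairs against 3.35% over all genes, and falls 3.47% against 4.78%. In none of these 35 pairs did treated and vehicle arrays overlap, which also held for 97.6% of all called pairs. Called or not, the arms did not overlap in 97 pairs of the members (37.5%), against 27.6% over all genes. Of the rises 9 were at least 2-fold, and of the falls 1 was.

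**Figure D2:**
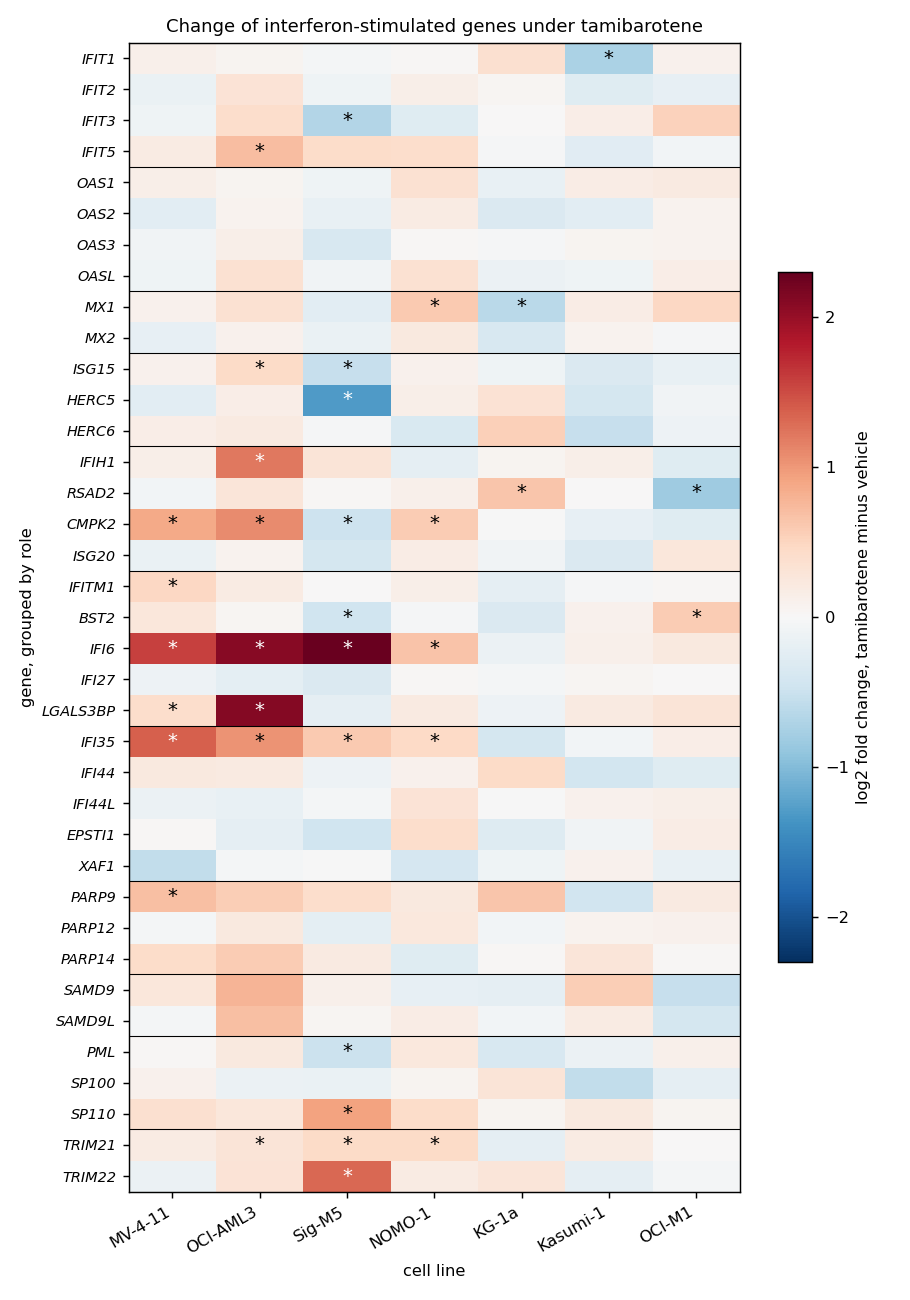
Log2 fold change, tamibarotene minus vehicle, of the 37 measured interferon-stimulated genes (rows, ordered by role, with lines between roles) in the 7 lines (columns). An asterisk marks a limma adjusted p under 0.05, and the darkest cells are IFI6 in Sig-M5 (2.28) and OCI-AML3 (2.10) and LGALS3BP in OCI-AML3 (2.10).

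IFI6, a small mitochondrial and endoplasmic reticulum membrane protein that restrains apoptosis and flavivirus replication, was the member with the largest rise. In Sig-M5 its log2 level was 6.02 and 5.47 with vehicle and 7.98, 8.02 and 8.06 with tamibarotene. In OCI-AML3 it was 6.63, 6.64 and 6.43 against 8.76, 8.70 and 8.54, and in MV-4-11 6.32, 6.05 and 6.60 against 7.95, 7.77 and 7.95. These 3 lines started at or below 6.64 and reached 7.77 to 8.76, so every treated array stood far above every vehicle array. NOMO-1 moved less, from 6.54, 6.88 and 6.28 to 7.35, 7.28 and 7.04, still without overlap. In KG-1a (8.78 and 8.81 against 8.68, 8.51 and 8.80), Kasumi-1 (7.22 and 7.49 against 7.57, 7.51 and 7.36) and OCI-M1 (9.53, 9.37 and 9.19 against 9.72, 9.61 and 9.43) the arms overlapped. KG-1a and OCI-M1 held more IFI6 with vehicle than any array of the other 5 lines reached with the drug. For KG-1a the margin was narrow, at 8.78 against 8.76 in OCI-AML3. Kasumi-1 started lower and had no call either, and a tie between vehicle level and response was not tested. The change was 2.28 ± 0.16 in Sig-M5 (4.85-fold, limma adjusted p = 3.58e-12), 2.10 ± 0.14 in OCI-AML3 (4.28-fold, adjusted p = 1.38e-12), 1.57 ± 0.14 in MV-4-11 (2.97-fold, adjusted p = 8.83e-10) and 0.66 ± 0.14 in NOMO-1 (1.58-fold, adjusted p = 0.0047), where ± gives the standard error of the fit. The first 3 kept their call without any single array and with the actin covariate, under which the Sig-M5 change was 1.86. NOMO-1 lost its call without vehicle replicate 3 (0.52, adjusted p = 0.0765). Compared with what the other 6 lines did on average, IFI6 responded more in Sig-M5 by 1.52 ± 0.17 (adjusted p = 1.25e-07), in OCI-AML3 by 1.31 ± 0.16 (adjusted p = 4.34e-07) and in MV-4-11 by 0.69 ± 0.16 (adjusted p = 0.00449). It responded less in KG-1a by -1.29 ± 0.17, in Kasumi-1 by -0.99 ± 0.17 and in OCI-M1 by -0.87 ± 0.16.

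LGALS3BP, a secreted glycoprotein that binds galectins, rose in OCI-AML3 from 5.59, 5.59 and 5.31 to 7.45, 7.75 and 7.62, a change of 2.10 ± 0.13 (4.30-fold, limma adjusted p = 7.48e-14) that was kept without any single array. The MV-4-11 arrays read 5.36, 5.33 and 5.60 with vehicle and 5.79, 5.75 and 5.98 with the drug, a smaller rise of 0.41 ± 0.13 (adjusted p = 0.0434). That call was lost without any of the treated arrays or without vehicle replicate 1 or 2 (adjusted p up to 0.209), and also with quantile normalization (adjusted p = 0.0856) or median centring (adjusted p = 0.0846). The other lines gave no call: Sig-M5 read 5.08 and 5.34 against 5.03, 5.04 and 4.92, NOMO-1 5.18, 5.29 and 4.95 against 5.36, 5.43 and 5.23, and KG-1a 5.52 and 5.54 against 5.38, 5.19 and 5.71. Kasumi-1 read 7.75 and 7.20 against 7.66, 7.69 and 7.69, and OCI-M1 10.36, 10.16 and 10.21 against 10.53, 10.62 and 10.48. Among these uncalled lines the arms did not overlap in OCI-M1, where treated arrays were higher, and in Sig-M5, where they were lower. The response of OCI-AML3 exceeded the mean of the other 6 lines by 1.97 ± 0.14 (adjusted p = 7.15e-12).

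The other membrane proteins of the list moved little. IFITM1, which hinders fusion of enveloped viruses, rose in MV-4-11 from 12.33, 12.21 and 12.34 to 12.77, 12.79 and 12.76 (0.48 ± 0.11, limma adjusted p = 0.00311), with no overlap and with the call kept without any single array. BST2, or tetherin, which holds budding virus particles on the cell, fell in Sig-M5 by -0.46 ± 0.13 (adjusted p = 0.00887), a call lost without vehicle replicate 2 (adjusted p = 0.0585) and with the actin covariate (adjusted p = 0.0779). In OCI-M1 BST2 rose by 0.58 ± 0.12 (adjusted p = 0.00518), from 11.62, 10.90 and 11.00 to 11.88, 11.68 and 11.72. Its vehicle replicate 1 stood near the treated arrays, and the lower replicates 2 and 3 were those with the larger actin differences of 0.52 and 0.56. The call was lost without vehicle replicate 2 (adjusted p = 0.088) or 3 (adjusted p = 0.0698), while with the actin covariate the change was 0.57 and kept its call. IFI27, a further small membrane protein often used to track interferon exposure in blood, had no call in any line. The 5 genes of this group gave 8 rises and 1 fall in 35 pairs of gene and line, where 3.35% and 4.78% of the pairs of all genes were called.

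IFI35, a cytoplasmic protein that dimerizes with NMI, rose in the same 4 lines as IFI6, but in a different order. The MV-4-11 arrays went from 7.60, 7.46 and 7.79 to 8.90, 9.0 and 9.05, and those of OCI-AML3 from 8.48, 8.61 and 8.45 to 9.47, 9.56 and 9.57. NOMO-1 went from 8.77, 8.91 and 8.51 to 9.19, 9.25 and 9.15 and Sig-M5 from 5.90 and 5.39 to 6.21, 6.20 and 6.32, so that treated and vehicle arrays did not overlap in any of the 4. KG-1a, at 8.17 and 8.27 with vehicle, lay lower with the drug at 7.68, 7.90 and 7.88, without overlap. This change of -0.40 was not called (adjusted p = 0.0712), but it was with the mean of both probe sets (-0.42 ± 0.12, adjusted p = 0.0405). Kasumi-1 (7.71 and 7.47 against 7.51, 7.59 and 7.48) and OCI-M1 (9.67, 9.57 and 9.63 against 9.88, 9.78 and 9.64) overlapped. The change was 1.37 ± 0.11 in MV-4-11 (2.58-fold, limma adjusted p = 3.88e-11), 1.02 ± 0.11 in OCI-AML3 (2.03-fold, adjusted p = 1.93e-08), 0.60 ± 0.12 in Sig-M5 (adjusted p = 0.000381) and 0.47 ± 0.11 in NOMO-1 (adjusted p = 0.009). A second probe set gave 1.04 in MV-4-11, 0.96 in OCI-AML3 and 0.44 in NOMO-1, but 0.07 in Sig-M5. Sig-M5 also lost its call without vehicle replicate 2 (adjusted p = 0.0927) or with the actin covariate (adjusted p = 0.12), and NOMO-1 without treated replicate 2 or vehicle replicate 3 (adjusted p up to 0.124). Against the mean of the other 6 lines the response was larger in MV-4-11 by 1.07 ± 0.12 and in OCI-AML3 by 0.67 ± 0.12, and smaller in KG-1a by -0.99 ± 0.13 (adjusted p = 3.72e-06). The remaining cytoplasmic proteins of this group, IFI44, IFI44L, EPSTI1 and the apoptosis-promoting XAF1, had no call in any line. XAF1 in MV-4-11 was nevertheless separated, at 5.53, 6.02 and 5.55 with vehicle and 5.01, 5.31 and 5.06 with the drug (-0.57 ± 0.21, adjusted p = 0.112), and its other 6 probe sets changed there by -0.06 to -1.28.

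CMPK2 is a mitochondrial nucleotide kinase whose gene stands head to head with that of RSAD2, or viperin, an enzyme that makes a chain-terminating nucleotide for viral polymerases. The nearest RefSeq start sites of both genes on chromosome 2 lie 66 or 22 bases apart, depending on the CMPK2 start chosen. RSAD2 has a further start, in a promoter window at chr2:6877527-6877826, which holds the ISRE match counted for it. CMPK2 rose in OCI-AML3 from 7.41, 7.64 and 7.26 to 8.56, 8.53 and 8.50 (1.09 ± 0.15, 2.13-fold, limma adjusted p = 2.9e-06) and in MV-4-11 from 7.04, 6.46 and 6.90 to 7.74, 7.73 and 7.57 (0.88 ± 0.15, adjusted p = 0.000105). NOMO-1 went from 7.66, 7.77 and 7.27 to 8.06, 8.25 and 8.14 (0.58 ± 0.15, adjusted p = 0.0251), again with no overlap. The first 2 rises were kept without any single array, and that of NOMO-1 was lost without treated replicate 2 or 3 or vehicle replicate 3 (adjusted p up to 0.238). In MV-4-11 the other 2 probe sets of CMPK2 changed by 0.06 and 0.20, in OCI-AML3 by -0.05 and 1.09, and in NOMO-1 by 0.03 and 0.24, so the size of its rise depended on the probe set, and averaging its probe sets ended the NOMO-1 call (adjusted p = 0.157). Sig-M5, where CMPK2 was lowest at 2.60 and 2.80, read 2.21, 2.25 and 2.22 with the drug (-0.48 ± 0.17, adjusted p = 0.0378), a fall whose call was lost without any single array of the line (adjusted p up to 0.292). KG-1a (10.65 and 10.65 against 10.44, 10.68 and 10.77), Kasumi-1 (6.87 and 6.86 against 7.19, 6.35 and 6.49) and OCI-M1 (9.96, 10.14 and 10.08 against 9.78, 9.83 and 9.75) gave no call.

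RSAD2 behaved otherwise. In KG-1a it rose from 9.83 and 9.41 to 10.26, 10.31 and 10.18 (0.64 ± 0.17, limma adjusted p = 0.0289), and in OCI-M1 it fell from 8.52, 8.63 and 8.72 to 7.82, 7.51 and 8.12 (-0.81 ± 0.15, adjusted p = 0.002). Arms did not overlap in either line. In the 5 other lines RSAD2 stayed between 4.03 and 5.05 in every array with no call, also in the 3 lines where CMPK2 rose. The difference between the changes of the 2 neighbours was not tested. A second RSAD2 probe set changed by 0.50 in KG-1a and by -0.88 in OCI-M1. The KG-1a call was lost without treated replicate 1 or 2 or vehicle replicate 2 (adjusted p up to 0.706), with the mean of both probe sets (adjusted p = 0.0668) and with the replicate number as a block (adjusted p = 0.0579). That of OCI-M1 was kept without any single array. OCI-M1 is the only line whose same-numbered arrays had deviations correlated above 0.1 in all 3 pairs. With the replicate number as a block the OCI-M1 change in RSAD2 stayed at -0.81 (limma adjusted p = 0.0103).

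**Figure D3:**
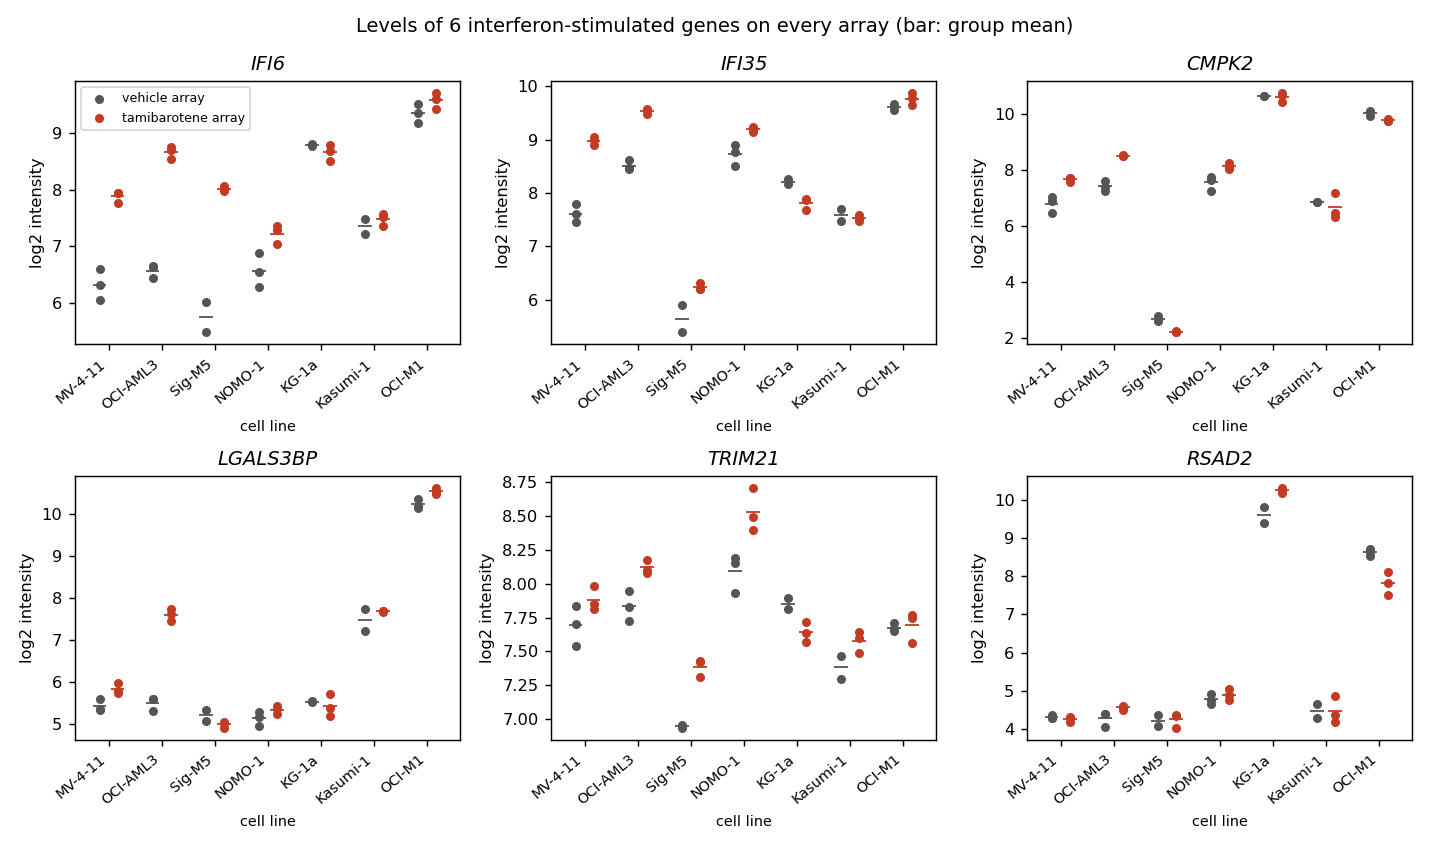
Log2 intensity of 6 interferon-stimulated genes on every array in the 7 lines, with vehicle arrays in grey, tamibarotene arrays in red and a bar at each group mean. IFI6 and IFI35 are separated upward in MV-4-11, OCI-AML3, Sig-M5 and NOMO-1 and IFI35 downward in KG-1a, LGALS3BP clearly in OCI-AML3, and RSAD2 is high only in KG-1a and OCI-M1, where it moved in opposite directions.

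Of the other enzymes and sensors, IFIH1, the cytoplasmic double-stranded RNA sensor MDA5, rose in OCI-AML3 from 3.24, 2.67 and 3.51 to 4.40, 4.30 and 4.34 (1.21 ± 0.32, 2.31-fold, limma adjusted p = 0.0098), without overlap. The level is low, and the call was lost without vehicle replicate 2, its lowest array (adjusted p = 0.0856), while a second probe set changed by 0.85. The exonuclease ISG20 had no call. The 4 IFIT genes, whose proteins bind viral RNA that lacks cap methylation, gave 1 rise and 2 falls in 28 pairs, near the shares over all genes of 3.35% and 4.78%. IFIT5 rose in OCI-AML3 from 3.43, 3.60 and 3.92 to 4.11, 4.39 and 4.58 (0.71 ± 0.19, adjusted p = 0.0124), although its second probe set changed by 0.03, with the mean of both at adjusted p = 0.0874, and the call was lost without treated replicate 3 or vehicle replicate 1 (adjusted p up to 0.0888). IFIT3 fell in Sig-M5 by -0.67 ± 0.25 (adjusted p = 0.0441), and this call was lost without any single array of the line (adjusted p up to 0.252). IFIT1 fell in Kasumi-1 by -0.73 ± 0.19 (adjusted p = 0.033), from 5.06 and 5.21 to 4.55, 4.05 and 4.65, and the call was lost without treated replicate 2 or either vehicle array (adjusted p up to 0.264). Vehicle replicate 2 of this line had the actin difference of 1.18, and with the covariate the call was lost too (adjusted p = 0.0611). IFIT2 had no call.

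The 4 oligoadenylate synthetases, OAS1, OAS2, OAS3 and OASL, which activate the RNA-cutting enzyme RNase L or, for OASL, support RNA sensing, were called in 0 of 28 pairs by their brightest probe sets, with changes between -0.37 and 0.36. Their other probe sets gave a different picture. Of OAS1, a probe set of nearly the same brightness changed by 1.05 in OCI-AML3, 1.01 in NOMO-1 and 0.61 in MV-4-11, and 2 probe sets of OAS2 changed by 0.96 and 1.13 in NOMO-1. With the mean of a gene's probe sets, OAS1 rose in NOMO-1 by 0.67 ± 0.11 (limma adjusted p = 5.19e-05) and in OCI-AML3 by 0.39 ± 0.11 (adjusted p = 0.00939). OAS2 rose by 0.69 ± 0.08 in NOMO-1 (adjusted p = 7.28e-07) and by 0.27 ± 0.08 in OCI-AML3 (adjusted p = 0.0278). For these 2 genes the call thus turned on how probe sets were combined. SAMD9 and SAMD9L, which restrict poxviruses and slow translation, had no call in 14 pairs either, with changes between -0.54 and 0.79. Over all genes 3.35% of the pairs were called up and 4.78% down. With so few pairs, the absence of calls does not set the synthetases or the SAMD9 proteins apart from all genes, and no test compared them. MX1, a dynamin-like GTPase that traps viral nucleocapsids, rose in NOMO-1 from 4.48, 4.93 and 4.46 to 5.34, 5.24 and 5.10 (0.61 ± 0.14, limma adjusted p = 0.0068). In KG-1a it fell from 6.27 and 6.32 to 5.67, 5.69 and 5.67 (-0.62 ± 0.15, adjusted p = 0.0169), so both lines were separated but in opposite directions. The NOMO-1 call was lost without treated replicate 1 or vehicle replicate 1 or 3 (adjusted p up to 0.0692), and the KG-1a call without treated replicate 1 or either vehicle array (adjusted p up to 0.208). MX2 had no call.

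ISG15 encodes a ubiquitin-like protein, which the ligase HERC5 attaches to other proteins. It rose in OCI-AML3 from 6.85, 7.04 and 6.96 to 7.29, 7.50 and 7.37 (0.44 ± 0.13, limma adjusted p = 0.0201) and fell in Sig-M5 from 7.29 and 7.60 to 7.07, 6.67 and 7.0 (-0.53 ± 0.14, adjusted p = 0.00557). The arms did not overlap in either line. The rise lost its call without treated replicate 2 or 3 or vehicle replicate 1 or 3 (adjusted p up to 0.114), and the fall without vehicle replicate 2 (adjusted p = 0.173) and with the actin covariate (adjusted p = 0.572). HERC5 had the largest fall of any member, in Sig-M5, from 5.89 and 5.81 to 4.58, 4.46 and 4.62 (-1.30 ± 0.21, 2.46-fold lower, adjusted p = 1.96e-05). The vehicle arrays lay close together, the fall kept its call without either of them, and with the actin covariate it was -1.46 (adjusted p = 0.00168). HERC6 had no call.

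PARP9, a macrodomain protein that binds ADP-ribose, rose in MV-4-11 from 3.62, 3.83 and 3.50 to 4.42, 4.75 and 3.86 (0.69 ± 0.20, limma adjusted p = 0.0255). The lowest treated array (3.86) was barely above the highest vehicle array, the call was lost without treated replicate 1 or 2 or vehicle replicate 1 or 3 (adjusted p up to 0.241), and its other 2 probe sets changed by -0.00 and 0.22, with the mean of all at adjusted p = 0.2. In KG-1a PARP9 was called with the mean of its probe sets (0.66 ± 0.15, adjusted p = 0.00518) but not by the brightest (0.64, adjusted p = 0.145). PARP12 had no call, and PARP14 had one only with the mean of its probe sets, in Sig-M5 (0.49 ± 0.14, adjusted p = 0.00767). Among the nuclear body proteins SP110 rose in Sig-M5 from 6.38 and 6.11 to 7.44, 7.0 and 7.09 (0.93 ± 0.15, adjusted p = 2.65e-05), but its other 4 probe sets changed by -0.17 to 0.15, only 1 of them upward. The call was lost with the mean of all its probe sets (adjusted p = 0.192) and with the actin covariate (adjusted p = 0.0817). That mean was called up in NOMO-1 (0.40 ± 0.08, adjusted p = 0.00119) and in OCI-AML3 (0.29 ± 0.08, adjusted p = 0.0123), where the brightest probe set had no call. PML, the organizer of nuclear bodies that the leukemia fusion PML-RARA disrupts, fell in Sig-M5 from 7.77 and 8.18 to 7.35, 7.45 and 7.62 (-0.50 ± 0.13, adjusted p = 0.00525). That call was lost without vehicle replicate 2 (adjusted p = 0.257) and with the actin covariate (adjusted p = 0.635). SP100 had no call.

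TRIM21, the cytosolic antibody receptor and ubiquitin ligase, rose in 3 lines by small amounts. It went from 6.94 and 6.95 to 7.42, 7.31 and 7.43 in Sig-M5 (0.44 ± 0.10, limma adjusted p = 0.00124), from 8.19, 8.15 and 7.93 to 8.49, 8.71 and 8.40 in NOMO-1 (0.44 ± 0.09, adjusted p = 0.00248) and from 7.83, 7.95 and 7.72 to 8.08, 8.17 and 8.10 in OCI-AML3 (0.29 ± 0.09, adjusted p = 0.0317). Treated and vehicle arrays were separated in all 3. The OCI-AML3 call was lost without any of the treated arrays or without vehicle replicate 1 or 3 (adjusted p up to 0.185) and with median centring (adjusted p = 0.0987), and that of Sig-M5 with the actin covariate (0.40, adjusted p = 0.0877). MV-4-11 (7.84, 7.54 and 7.70 against 7.81, 7.85 and 7.98), Kasumi-1 (7.29 and 7.47 against 7.60, 7.49 and 7.65), KG-1a (7.81 and 7.89 against 7.57, 7.72 and 7.63) and OCI-M1 (7.65, 7.67 and 7.71 against 7.77, 7.74 and 7.56) had no call. Among these uncalled lines the arms were still separated in Kasumi-1, barely and upward, and in KG-1a, downward. TRIM22, an antiviral ubiquitin ligase, rose in Sig-M5 alone among the calls, from 9.79 and 9.43 to 10.89, 11.06 and 10.83 (1.32 ± 0.21, 2.49-fold, adjusted p = 2.03e-05). All 5 of its other probe sets had a positive change there, of 0.82 to 3.81. The call was kept without either vehicle array and lost with the actin covariate (0.90, adjusted p = 0.052). The actin differences moved with arm in Sig-M5, and their part in the changes of that line beyond these fits was not tested.

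Averaged over the 7 lines, 8 members rose, against 6.71% of all genes, and 0 fell, against 12.4%. They were IFI6 (0.98 ± 0.06), IFI35 (0.45 ± 0.04), LGALS3BP (0.41 ± 0.05), SP110 (0.33 ± 0.05), PARP9 (0.33 ± 0.08), TRIM22 (0.24 ± 0.08), CMPK2 (0.23 ± 0.06) and TRIM21 (0.19 ± 0.04). The average holds for these 7 lines only, and for LGALS3BP it joins a change of 2.10 in OCI-AML3 to changes of at most 0.41 elsewhere. By the F test of limma the response of 17 of the 37 members differed between the lines, against 27.4% of all genes. The F test left out IFIT5, IFIT3, PARP9 and IFIH1, which were called in 1 line each, so for these a difference between lines was not shown over all 7. In the responses set against the other 6 lines, OCI-AML3 had 6 members higher (background 4.15%) and MV-4-11 4 (background 3.04%), and both had 0 lower (3.67% and 1.75%). KG-1a had 5 members lower (3.08%), namely IFI6, IFI35, LGALS3BP, MX1 and TRIM21, and RSAD2 as the only one higher (1.82%). Sig-M5 had 7 lower (15.3%) and 3 higher (7.57%). NOMO-1 had MX1 as its 1 higher member (1.92%), and OCI-M1 had 3 lower (1.72%), namely IFI6, CMPK2 and RSAD2, and BST2 higher (1.79%). Kasumi-1 had 4 lower (4.05%), namely IFIT1, IFI6, IFI35 and PARP9, and 0 higher (1.31%).

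The lines differed far more in their vehicle levels than in their response. For 35 of the 37 members the vehicle level differed between lines by the F test of limma, against 78.6% of all genes, and the exceptions were OAS3 and IFI44L. OCI-M1 stood out: 30 members were higher there than in the mean of the other 6 lines (background 22.5%) and 1 was lower (background 30.4%, with 0 to 2 when single arrays were left out). The median member lay 1.25 above its mean over the 7 lines in OCI-M1, against -0.07 for all genes, and 21 of the 37 members had their highest vehicle mean there, against 13% of all genes. KG-1a came next at 0.37, with 19 members higher (21.5%) and 6 lower (20.1%). Without KG-1a vehicle replicate 2, 3 were lower. The other medians were -0.14 in NOMO-1, -0.40 in Kasumi-1, -0.41 in Sig-M5, -0.51 in MV-4-11 and -0.59 in OCI-AML3, and the last 4 were not compared with each other.

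In OCI-AML3, MV-4-11, Sig-M5 and Kasumi-1 more members were below the other 6 lines than above them. OCI-AML3 had 23 lower (18.3%) and 5 higher (18.2%), with 3 higher without its vehicle replicate 2. MV-4-11 had 24 lower (18.7%) and 3 higher (21.2%). Sig-M5 had 20 lower (28.1%) and 7 higher (28.9%), Kasumi-1 20 lower (19.5%) and 7 higher (21.9%), and NOMO-1 15 lower (27.5%) and 11 higher (19.3%).

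IFITM1 had the widest range of vehicle levels, 8.13 on the log2 scale. It was at 13.49, 13.53 and 13.48 in OCI-M1, at 13.42 and 13.38 in KG-1a, at 12.33, 12.21 and 12.34 in MV-4-11 and at 11.30 and 11.18 in Kasumi-1. It was at 8.71, 8.84 and 8.54 in NOMO-1, 5.94, 5.56 and 6.19 in OCI-AML3 and 5.45 and 5.29 in Sig-M5. No line overlapped another in this order, and the narrowest gaps were between OCI-M1 and KG-1a and between OCI-AML3 and Sig-M5. Treated arrays kept the same order, at 13.51 to 13.54 in OCI-M1, 13.17 to 13.24 in KG-1a, 12.76 to 12.79 in MV-4-11, 11.19 to 11.26 in Kasumi-1, 8.71 to 8.95 in NOMO-1, 6.07 to 6.11 in OCI-AML3 and 5.12 to 5.59 in Sig-M5. CMPK2 ranged over 7.95, from 10.65 in both KG-1a arrays to the 2.60 and 2.80 of Sig-M5. RSAD2 ranged over 5.40: both vehicle arrays of KG-1a and all 3 of OCI-M1 were above 8.5, and no array of the other lines was above 5.05.

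LGALS3BP ranged over 5.10, from 10.24 in OCI-M1 to 7.48 in Kasumi-1 and 5.14 to 5.53 in the other 5 lines. IFI27 ranged over 4.94 and was high in OCI-M1 alone, with 10.68, 10.65 and 10.68 against 5.56 to 6.43 in the vehicle arrays of the other lines. MX2, a nuclear pore GTPase that restricts HIV, did not follow the pattern: it was highest in OCI-AML3 (8.61) and NOMO-1 (8.56), at 6.20 to 6.48 in MV-4-11, Sig-M5 and OCI-M1, and lowest in Kasumi-1 (4.33) and KG-1a (4.03). IFIH1 (5.61), SAMD9 (6.37) and TRIM22 (9.61) had their highest vehicle mean in Sig-M5.

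**Figure D4:**
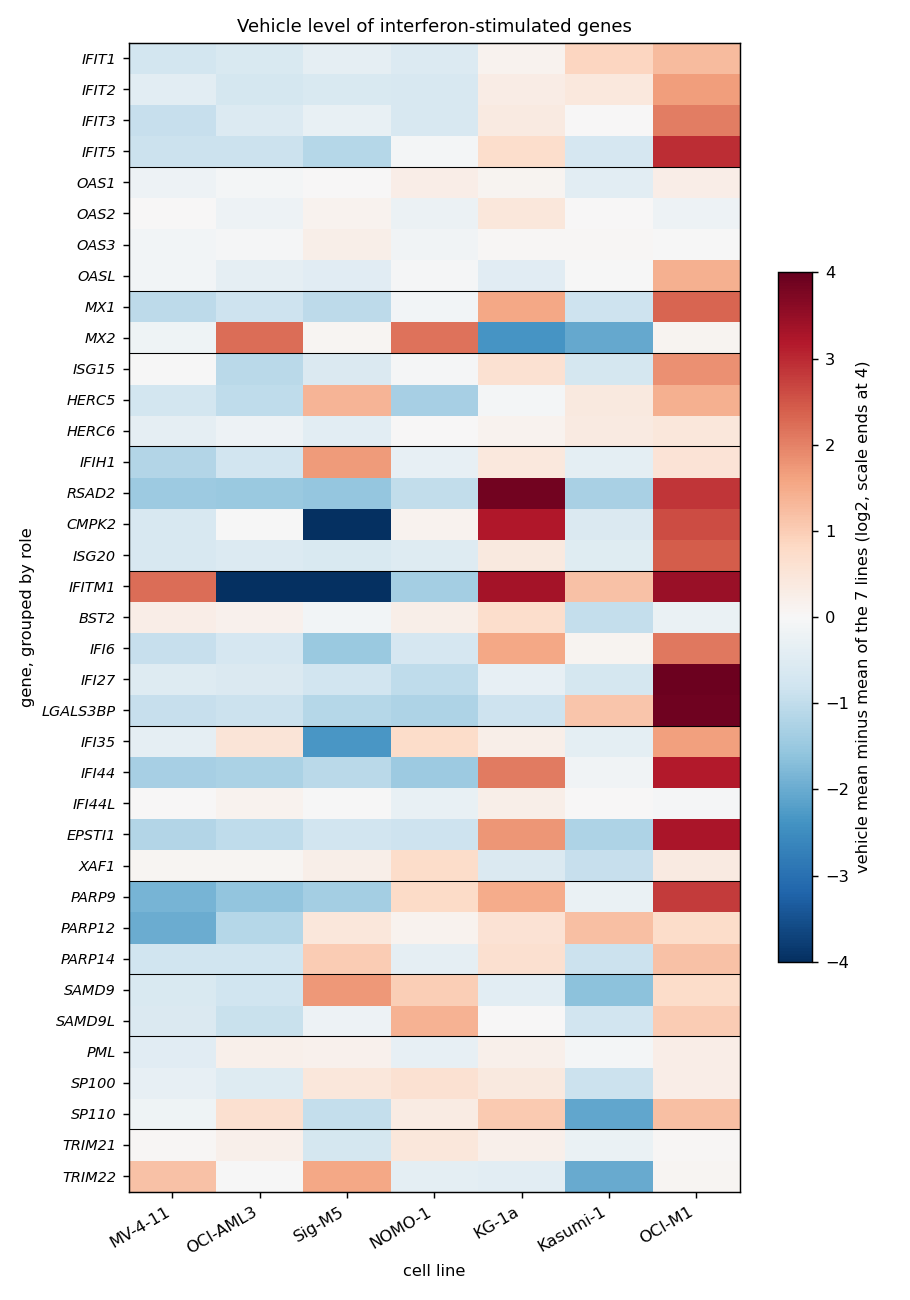
Vehicle mean of each measured interferon-stimulated gene (rows, ordered by role) in each line (columns) minus its mean over the 7 lines, on the log2 scale, with the colour scale ending at 4. The OCI-M1 column is above the mean for most genes (median 1.25), and CMPK2 and IFITM1 in Sig-M5 and IFITM1 in OCI-AML3 are the darkest blue.

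The other genes of the pathway were read from lists chosen with earlier results of these arrays known. No interferon was called in any line: IFNB1, IFNA2, IFNE, IFNK, IFNW1, IFNG and IFNL1, the 7 of 10 listed ligands analysed here, had mean levels of 2.39 to 4.25, in the lower part of the range of 1.68 to 14.43 over all probe sets. IFNB1 lay between 2.81 and 3.75 on every array. Of the receptor and kinase genes, 10 of 11 analysed, 2 rose in MV-4-11 (4.32% of all genes), 3 in OCI-AML3 (5.5%) and 3 in Sig-M5 (8.5%), and 0 fell in any line. IFNAR2, the signaling chain of the type I receptor, rose in MV-4-11 by 1.02 ± 0.14 (limma adjusted p = 2.64e-06), in OCI-AML3 by 0.45 ± 0.14 (adjusted p = 0.0317) and in Sig-M5 by 0.42 ± 0.16 (adjusted p = 0.0468). The MV-4-11 call was kept without any single array. That of OCI-AML3 was lost without treated replicate 1 or 2 or vehicle replicate 1 or 3 (adjusted p up to 0.215), and that of Sig-M5 without treated replicate 1 or 3 or vehicle replicate 2 (adjusted p up to 0.704). IFNAR1 had no call. IFNGR1, a chain of the interferon gamma receptor, rose in Sig-M5 by 1.39 ± 0.24 and had adjusted p = 0.0636 with the actin covariate. JAK2 rose there by 0.62 ± 0.20, lost without either vehicle array (adjusted p up to 0.104), and IL10RB, a chain of the lambda receptor, rose in OCI-AML3 by 0.52 ± 0.10.

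IRF1, the factor that interferon gamma and retinoic acid raise, was called up in 6 lines, more than any member. Of the regulatory factor list 8 of 9 were analysed, and the shares of all genes follow in brackets. In each of MV-4-11 (4.32%), OCI-AML3 (5.5%), Sig-M5 (8.5%) and NOMO-1 (2.77%) 3 rose. In Kasumi-1 (0.48%) and OCI-M1 (0.7%) 1 rose. The falls were 1 in MV-4-11 (3.4%), OCI-AML3 (6.36%) and Kasumi-1 (2.36%) and 2 in Sig-M5 (18.4%). OCI-AML3 went from 8.78, 8.88 and 8.68 to 10.57, 10.61 and 10.53 (1.79 ± 0.09, limma adjusted p = 6.15e-16) and NOMO-1 from 7.94, 8.05 and 7.72 to 9.67, 9.78 and 9.59 (1.77 ± 0.09, adjusted p = 2.69e-15). Sig-M5 went from 7.60 and 7.32 to 8.71, 8.72 and 8.84 (1.30 ± 0.10, adjusted p = 1.72e-11) and MV-4-11 from 8.30, 8.10 and 8.36 to 9.51, 9.49 and 9.57 (1.27 ± 0.09, adjusted p = 1.45e-12). These are the 4 lines in which IFI6, IFI35 and at least 5 members were called up in the main fit. The number of members called up was 1 in Sig-M5 with the actin covariate and 1 in NOMO-1 without vehicle replicate 3. A link between the IRF1 rise and the members was not tested. In Kasumi-1 IRF1 rose by 0.51 ± 0.10 (adjusted p = 0.00678) and lost the call with the actin covariate (adjusted p = 0.0611). OCI-M1 rose by 0.36 ± 0.09 (adjusted p = 0.0352), which was lost without any single array of the line (adjusted p up to 0.207) and with the replicate number as a block (adjusted p = 0.0601). KG-1a had 0.25 ± 0.10 with no call (adjusted p = 0.239).

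IRF9, the DNA-binding subunit of ISGF3, rose in OCI-AML3 by 0.84 ± 0.11 (limma adjusted p = 4.46e-07), in MV-4-11 by 0.64 ± 0.11 (adjusted p = 4.38e-05), in NOMO-1 by 0.59 ± 0.11 (adjusted p = 0.000462) and in Sig-M5 by 0.38 ± 0.12 (adjusted p = 0.0165). The Sig-M5 call was lost without treated replicate 1 or 3 or vehicle replicate 2 (adjusted p up to 0.254). KG-1a, Kasumi-1 and OCI-M1 had no call for IRF9. IRF7, the amplifier of type I interferon production, did not rise in any line, and in Sig-M5 it fell by -0.35 ± 0.13 (adjusted p = 0.0376), a call lost without any of the treated arrays or without vehicle replicate 2 (adjusted p up to 0.303). IRF4, a lymphoid and dendritic cell factor, rose in MV-4-11 alone among the calls, by 2.27 ± 0.13 (adjusted p = 1.11e-14). IRF3 fell in Sig-M5 by -0.67 ± 0.18, lost without vehicle replicate 2 (adjusted p = 0.11). RARA itself read 8.33 to 8.41 with vehicle in MV-4-11, 8.10 to 8.70 in OCI-AML3, 8.85 and 9.36 in Sig-M5, 6.83 to 7.51 in NOMO-1, 7.58 and 7.64 in KG-1a, 7.57 and 7.58 in Kasumi-1 and 7.64 to 7.89 in OCI-M1. Its only call was a fall in Sig-M5 of -0.67 ± 0.18 (adjusted p = 0.00592), lost without vehicle replicate 2 (adjusted p = 0.241). With the actin covariate the Sig-M5 calls of IFNAR2, JAK2, IRF3, IRF7, IRF9 and RARA were all lost (adjusted p 0.0961 to 0.701), and that of IRF1 was kept.

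**Figure D5:**
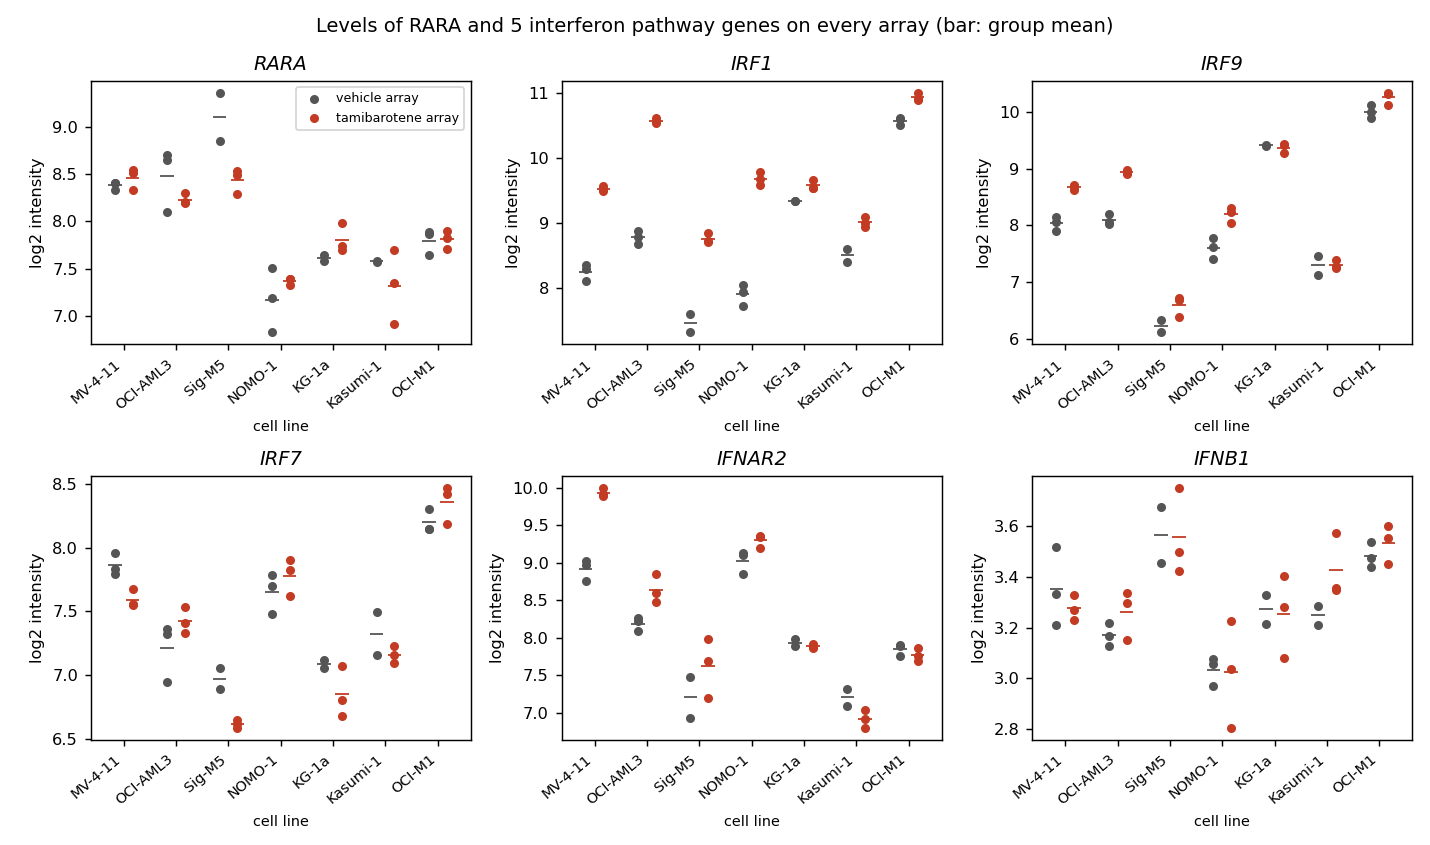
Log2 intensity of RARA and 5 interferon pathway genes on every array in the 7 lines, with vehicle arrays in grey, tamibarotene arrays in red and a bar at each group mean. IRF1 is separated in all 7 lines, by the least in KG-1a and OCI-M1, and IRF9 in MV-4-11, OCI-AML3, Sig-M5, NOMO-1 and, barely, OCI-M1, while IFNB1 stays between 2.81 and 3.75 throughout.

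The counts of the following lists stand beside these shares of all genes. Rises were called in 4.32% in MV-4-11, 5.5% in OCI-AML3, 8.5% in Sig-M5 and 2.77% in NOMO-1. For KG-1a, Kasumi-1 and OCI-M1 the rises were 1.21%, 0.48% and 0.7%. Falls were called in 3.4% in MV-4-11, 6.36% in OCI-AML3, 18.4% in Sig-M5 and 0.711% in NOMO-1. For KG-1a, Kasumi-1 and OCI-M1 the falls were 1.88%, 2.36% and 0.386%. Among 18 nucleic acid sensors and adapters, 2 rose in MV-4-11, 3 in OCI-AML3 and 4 in Sig-M5, where 4 also fell, near the background of that line, with 1 fall each in NOMO-1 and KG-1a. STING1, the adapter of cytosolic DNA sensing, rose in OCI-AML3 by 1.73 ± 0.10 (limma adjusted p = 3.06e-14). Its activator CGAS rose in Sig-M5 by 1.12 ± 0.19, the DNA sensor AIM2 by 1.05 ± 0.19 and the kinase TBK1 by 1.05 ± 0.33. The call for TBK1 was lost without either vehicle array (adjusted p up to 0.127) and with the actin covariate (adjusted p = 0.246). Of 9 negative regulators, 1 rose and 2 fell in OCI-AML3, 2 fell in Sig-M5 and 1 rose in KG-1a. SOCS2 fell in OCI-AML3 by -0.98 ± 0.13 and CISH in Sig-M5 by -0.98 ± 0.16, the second losing its call with the actin covariate (adjusted p = 0.0919). SOCS1, the inhibitor that interferon induces, rose in OCI-AML3 by 0.67 ± 0.17, and SOCS3 rose in KG-1a by 0.71 ± 0.16. The SOCS3 call was lost without treated replicate 2 or either vehicle array (adjusted p up to 0.101).

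Of 25 other interferon-responsive genes 23 were analysed, and the largest change among them, of SAMHD1 in Sig-M5, exceeded that of any member. In this list 7 rose in MV-4-11, 7 in OCI-AML3, 5 in Sig-M5 and 4 in NOMO-1, with 4 falls in Sig-M5 and 1 each in NOMO-1, KG-1a and Kasumi-1, and 0 rises in KG-1a, Kasumi-1 and OCI-M1. SAMHD1, which depletes nucleotides and restricts HIV in myeloid cells, rose by 3.56 ± 0.23 in Sig-M5 (limma adjusted p = 2.83e-13), 2.09 ± 0.20 in MV-4-11 and 1.74 ± 0.20 in OCI-AML3. UBE2L6, the conjugating enzyme that passes ISG15 to its ligases, rose by 1.90 ± 0.10 in OCI-AML3, 0.72 ± 0.10 in NOMO-1 and 0.65 ± 0.11 in Sig-M5. IFITM3 rose by 1.13 ± 0.11 in OCI-AML3, where its neighbour IFITM1 had no call, and by 0.90 in MV-4-11, where IFITM1 rose too. It also rose by 0.42 in NOMO-1, a call lost without treated replicate 1 or 2 or vehicle replicate 1 or 3 (limma adjusted p up to 0.309). In Sig-M5 IFITM3 fell by -0.48, a call lost with the actin covariate (adjusted p = 0.113). TNFSF10, the death ligand TRAIL, fell in Sig-M5 by -1.22 ± 0.23.

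Of 16 genes typical of interferon gamma, 7 rose in OCI-AML3, 6 in NOMO-1, 4 in MV-4-11, 2 each in Sig-M5, KG-1a and Kasumi-1 and 1 in OCI-M1, with 2 falls in Sig-M5 and 1 each in OCI-AML3 and OCI-M1. GBP4, a guanylate-binding protein, rose by 2.51 ± 0.18 in OCI-AML3, 2.16 ± 0.18 in NOMO-1 and 2.04 ± 0.18 in MV-4-11. WARS1, the tryptophanyl-tRNA synthetase that interferon gamma induces, was called up in 6 lines. It rose by 1.47 ± 0.09 in Sig-M5, 1.13 in OCI-AML3, 0.84 in NOMO-1 and 0.67 in MV-4-11. The rises were smaller in Kasumi-1 (0.47) and OCI-M1 (0.43), and the Kasumi-1 call was lost with the actin covariate (limma adjusted p = 0.0699). ICAM1, an adhesion molecule, rose by 1.56 ± 0.20 in MV-4-11, and FCGR1A, a high-affinity antibody receptor, fell by -1.58 ± 0.13 in OCI-AML3. The FCGR1A fall kept its call under every alternative run, but its size ranged from -1.62 to -0.67. NOMO-1 thus had 5 of 37 members called up beside 6 of these 16 genes, and no test compared the lists.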

How the data were processed

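The deposited values are log2 expression from robust multi-array averaging (RMA) in affy, per the submitters' processing notes, with no version given in the sources used here. RMA compresses differences near background, so folds of dim probe sets are likely understated. Whether all arrays were normalized together is not given. Of 49395 probe sets, 44988 named 1 gene, and the brightest per gene was kept, for 18132 genes. The array control probe sets gave the actin difference. Groups of line and arm were fitted together over 39 arrays with limma 3.58.1 in R 4.3.3 (lmFit, eBayes). Contrasts were each line's response, their average, each line against the mean of the other 6, and F tests between lines, with Benjamini-Hochberg adjustment over all genes per contrast. The script was tested on simulated data.

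The members and lists were chosen with earlier results of these data known. All members could be named. Values on every array are given for members called in at least 3 lines, for the 4 with the smallest F test p and for the 4 with the widest vehicle range. From each pathway list the 4 genes with the largest called change are named, and RARA, IRF1, IRF7, IRF9, IFNB1, IFNAR1 and IFNAR2 always. For several list genes only the line of the largest change is given, and calls in other lines are left out. Other genes and markers named were picked after their values were seen.

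Replicate numbers were checked for pairing by the correlation of same-numbered arrays' deviations from their group means. OCI-M1 alone passed 0.1 in all 3 pairs (0.118 to 0.371), a hint in the data that no label states. Higher single values occurred elsewhere. MV-4-11 had 0.0995, 0.67 and 0.501, NOMO-1 0.0105, 0.511 and 0.572, and OCI-AML3 -0.0425, 0.353 and 0.461. The main fit took no account of pairing in any line. Alternatives were another normalization, the probe set rule, the actin covariate, a filter on dim genes, each line alone, the replicate block, moderation with trend, fits without Kasumi-1 and Sig-M5, and each array left out.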

Additional observations from a re-analysis of the deposited data

Results flagged for a closer look

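The response to tamibarotene differed between the 7 lines for 17 members by the F test of limma. The adjusted p was 6.95e-11 for IFI6, 4.22e-10 for LGALS3BP, 3.98e-09 for IFI35 and 2.78e-06 for CMPK2. All 4 were called up in both MV-4-11 and OCI-AML3, LGALS3BP in MV-4-11 by a small amount. It was 0.000309 for MX1, 0.000475 for RSAD2, 0.000455 for BST2 and 0.00481 for ISG15, each of which was called up in 1 line and down in another. It was 0.00111 for HERC5, 0.00287 for TRIM22, 0.0064 for PML and 0.0278 for SP110, all called in Sig-M5 alone, the line whose vehicle arrays had the largest actin differences. TRIM21 had 0.00369, IFITM1 0.041 and IFIT1 0.0483. IFI44 (0.0204) and HERC6 (0.0355) differed between lines without a call in any single line.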

How the results depend on the processing

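No called change of a named gene reversed its sign under any alternative. The median member change did so in Sig-M5 with the actin covariate, as given below. In Kasumi-1 this median was 0.01 in the main fit and as low as -0.0726 with single arrays left out. Counts of members moved by more than 1.5 times as follows, and the cause was not tested. With quantile normalization OCI-AML3 had 3 members higher with vehicle than the other 6 lines in place of 5, and on average 1 member fell in place of 0. With median centring these were 3 and 1 as well, and 2 fell in Kasumi-1 in place of 1. With the mean of probe sets 2 fell in KG-1a in place of 1. By less than 1.5 times, that setting also gave 10 rises in OCI-AML3 in place of 8 and 7 in NOMO-1 in place of 5. OAS1, OAS2 and SP110 were newly called in both. With the actin covariate 1 rose and 1 fell in Sig-M5 in place of 5 and 6, its median change was 0.0259 in place of -0.10, 4 of its members in place of 7 were higher with vehicle, 0 fell in Kasumi-1 and 2 rose in OCI-M1. Without the dimmest genes 2 members in place of 1 were lower in OCI-M1 with vehicle. With each line alone 0 rose in NOMO-1, 4 rose in KG-1a, 0 fell in Kasumi-1, and 0 rose and 0 fell in OCI-M1. With the replicate block 1 fell in MV-4-11, 1 rose and 3 fell in Kasumi-1, and 2 fell on average. In OCI-M1, the line above 0.1 in all 3 pairs, the block changed no call of a member (RSAD2 limma adjusted p = 0.0103, BST2 0.00531). It lost the call of IRF1 there (0.0601).

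Leaving out single arrays gave 4 to 5 rises in MV-4-11, 5 to 7 in OCI-AML3 and 1 to 5 in NOMO-1. It gave 0 to 1 rises in OCI-M1. It gave 1 to 7 falls in Sig-M5, 0 to 3 in Kasumi-1, 0 to 1 in KG-1a and 0 to 1 on average. Kasumi-1 had 0 without treated replicate 2 or vehicle replicate 2, 2 without treated replicate 1 and 3 without vehicle replicate 3, and OCI-M1 had 0 rises without vehicle replicate 3. KG-1a had 0 rises without treated replicate 1 or 2 or vehicle replicate 2, and 0 falls without treated replicate 1 or either vehicle array. With vehicle 3 to 6 members were higher in OCI-AML3, 3 to 6 lower in KG-1a and 0 to 2 lower in OCI-M1. The average rises numbered 7 to 12 over all alternatives, and the responses that differed between lines 13 to 25. IFI6, IFI35, CMPK2 and IFITM1 in MV-4-11, IFI6, IFI35, CMPK2 and LGALS3BP in OCI-AML3, and IFI6 and HERC5 in Sig-M5 kept their call under every alternative run. With 2 or 3 arrays a group and RMA values near background, small changes of dim genes such as IFIT2, HERC6, IFIH1 and IFI44L cannot be measured well.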
